A study of Mus musculus with 24 samples.

Results

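Short, solitary patches of H3K27me3 that both limb buds share are described here. The H3K27me3 peaks of each E10.5 library were joined where they lay within 3 kb of each other, and the 4 joined lists were merged wherever they touched or overlapped, which gave 8764 merged regions. A region was taken where it was shorter than 3 kb, was covered in all 4 libraries and had no other merged region within 20 kb. This held for 887 regions, 10.1% of all merged regions and 29.3% of the 3027 found in all 4 libraries. The other regions of all 4 libraries serve as the comparison: 1017 were as isolated but 3 kb or longer (long isolated), 381 were as short but had a neighbour within 20 kb (short clustered), and 742 were long with a neighbour (long clustered).

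Chromatin came from forelimb or hindlimb buds of C57BL/6J mouse embryos and was immunoprecipitated for modified histone H3. At embryonic day 10.5 (E10.5) each limb had 2 libraries of H3K27me3 (Millipore 07-449, single-end reads) and 2 of H3K27ac (Abcam ab4729, paired-end reads), and at E11.5 each limb had 1 library of H3K27ac. The study set forelimb against hindlimb for an active and a repressive mark. The labels do not say that replicates were separate litters, so every SD and p-value here measures only how these libraries vary, which may be technical variation. The E11.5 samples used another lot of the H3K27ac antibody, and their lists were prepared differently, so stage, lot and list preparation cannot be told apart. The titles and stage labels of these samples give E11.5, while their protocol text names day 10.5; the titles were followed, and every value given for E11.5 rests on them. All animals were of 1 strain, and no allele or treatment is given. A limb bud holds mesenchyme, ectoderm, vessels, nerve and incoming muscle precursors. Peaks of both marks at 1 place can therefore come from different cells of the bud.

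H3K27me3 is trimethylation of histone H3 at lysine 27 and is written by Polycomb repressive complex 2. In embryos it is found over silent developmental genes, above all at their CpG-rich promoters, and can extend over a whole gene cluster such as the Hox clusters. H3K27ac is acetylation of the same lysine and marks active promoters and enhancers, so a single histone tail cannot carry both.

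The 4 H3K27me3 lists held 10477 to 12901 peaks over 7.56 to 13.5 Mb, and the 4 E10.5 H3K27ac lists held 13589 to 21363 peaks over 7.63 to 14.7 Mb. At E11.5 there were 23209 forelimb and 32612 hindlimb peaks. Sequencing depth is not part of a peak list and is unknown here, so a site without a peak is only a site where nothing passed the authors' threshold. For each mark, forelimb library 2 had the shortest of the 4 E10.5 lists, and its values stand apart from those of the other 3 in several results below. The libraries of the 2 marks are separate samples that only share a replicate number. Positions are in the mouse build mm9. Since no mm9 gene models were used, regions are given by position and not by exon, intron or promoter.

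Width, coverage in the 4 libraries and spacing are the values the regions were selected on. The score was not part of the rule but comes from the same H3K27me3 peaks. All of these are therefore given as a description without a test. The 887 regions were 201 to 2999 bp wide with a median of 2090 bp (quartiles 1642 and 2535 bp). Only 1 was under 500 bp, 15 were from 500 to 1000 bp, 149 from 1000 to 1500 bp, 235 from 1500 to 2000 bp, 244 from 2000 to 2500 bp and 243 above that. The numbers did not fall off toward the 3 kb limit, so the limit cuts through a continuous range of widths. Just inside it the 3 widest regions measured 2995, 2996 and 2999 bp, with mean score percentiles of 63.7, 57.3 and 76.8. Just outside it, isolated regions of 3000, 3001 and 3001 bp had mean score percentiles of 85.1, 81.8 and 76.4.

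The regions were covered to different extents by the 4 libraries. The median covered length per region was 1204 bp in forelimb library 1, 856 bp in forelimb library 2, 1692 bp in hindlimb library 1 and 1529 bp in hindlimb library 2. As a share of the merged width these medians were 62.1%, 44.6%, 87.4% and 78.0%. Both hindlimb libraries thus covered more of a typical region than either forelimb library, and forelimb library 2 covered the least. The stretch covered in all 4 libraries at once had a median of 640 bp, and in 64 regions no base was covered in all 4. The centres of the best scoring peaks of the 4 libraries lay within a median of 367 bp of each other. A single peak in each of the 4 libraries was found in 159 regions (17.9%).

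**Figure D1:**
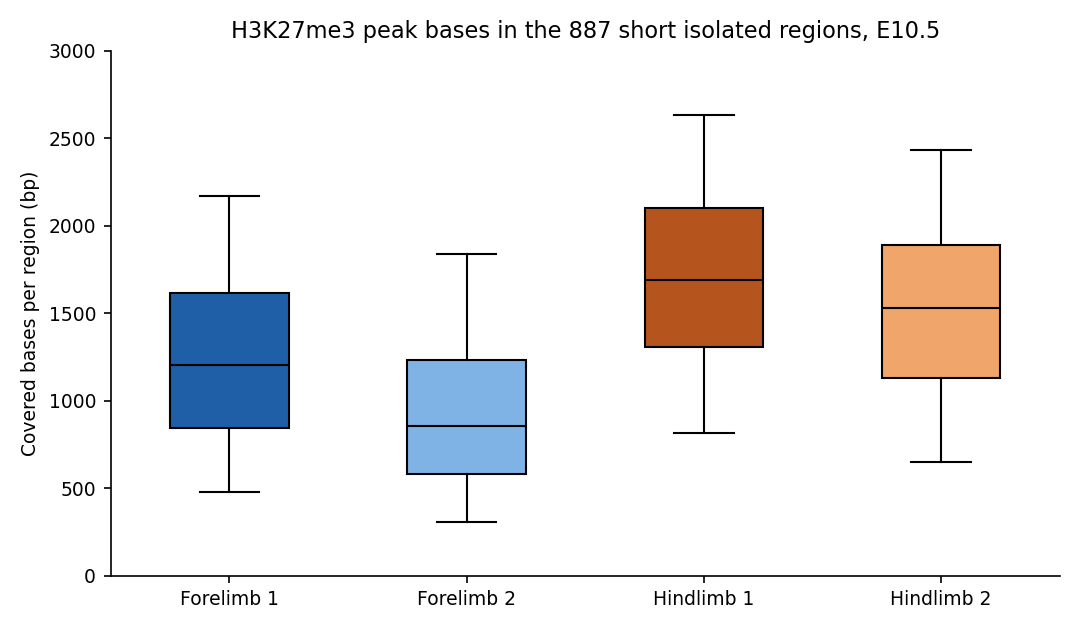
Bases covered by H3K27me3 peaks (bp, vertical axis) in each of the 887 short isolated regions, by E10.5 library. Boxes span the quartiles, lines in them are medians (1204, 856, 1692 and 1529 bp from left to right), and whiskers reach the 5th and 95th percentiles. Both hindlimb medians lie above both forelimb medians.

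The limb difference in covered length was shared by the whole lists. Both hindlimb libraries covered more bases than both forelimb libraries in 574 of the short isolated regions (64.7%), and the same order held in 68.5% of all regions found in all 4 libraries. The reverse order held in 3 short isolated regions (0.338%), against 0.991% of all regions of the 4 libraries, and in the other 310 the limbs overlapped. These regions took 11.2%, 11.1%, 11.2% and 11.3% of the bases of forelimb libraries 1 and 2 and hindlimb libraries 1 and 2, so their share of a list hardly moved while the lists differed in length. Their covered total was 0.974 ± 0.193 Mb for the forelimb and 1.43 ± 0.107 Mb for the hindlimb (SD, n = 2 libraries each). In comparison, long isolated regions took 35.2% to 41.0% of the bases of a list. The 3 regions with more bases in both forelimb libraries, singled out after their values were seen, were chr7:120096833-120099644, chr7:36368427-36370574 and chr6:115084193-115086080. The second of these was covered over 1976 and 2058 bp in forelimb and over 1943 and 1600 bp in hindlimb, and its best peak stood at the 91.4 and 96.9 percentile of the forelimb lists and at the 79.2 and 77.3 percentile of the hindlimb lists.

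Score rank placed the regions in the upper middle of the lists. The score is the authors' peak score, 10 times the negative log10 of the p-value of the peak caller, and its percentile is the standing of the best peak of a region within its own list, with 100 as the top. The median percentile was 70.1 in forelimb library 1, 55.4 in forelimb library 2, 75.7 in hindlimb library 1 and 72.7 in hindlimb library 2. Long isolated regions had 87.9, 83.6, 89.98 and 89.5 in the same libraries. Short clustered regions had 71.5, 57.9, 74.8 and 73.5, close to the short isolated ones. Long regions of either spacing thus ranked higher in all 4 libraries, and isolation went with little difference in rank among short regions. The measure takes the best of all peaks in a region, which favours regions with several peaks, and long regions held more. In forelimb library 1 a single peak was found in 51.5% of short isolated and 13.7% of long isolated regions. The order of the classes, and the standing in the upper middle, are thus partly set by the measure. The mean over the 4 libraries had a median of 66.7 (quartiles 54.9 and 77.6) and ran from 11.3 to 98.1, with 34 regions over 90 and 152 under 50.

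**Figure D2:**
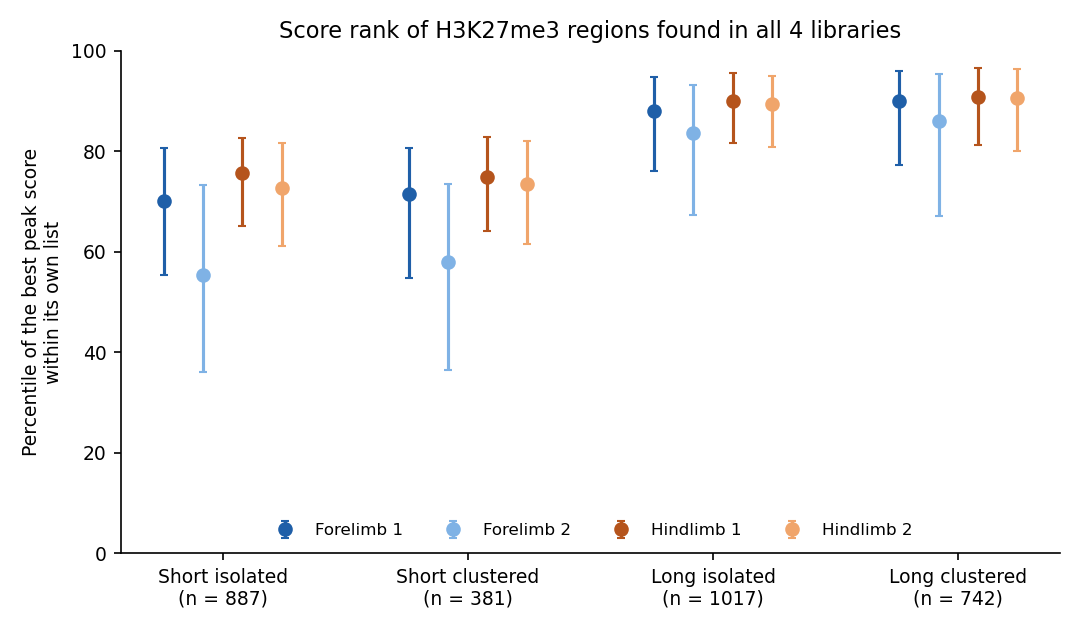
Percentile of the best H3K27me3 peak score of a region within its own list (vertical axis, 0 to 100) for the 4 classes of region found in all 4 libraries. Points are medians and bars span the quartiles, coloured by E10.5 library. Short regions, isolated or clustered, have lower medians than long regions in each library.

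Among the short isolated regions, wider ones had better scores. The 16 regions under 1000 bp had a median mean percentile of 42.9, the 384 from 1000 to 2000 bp had 58.8, and the 487 from 2000 bp up had 73.0. Across the 887 regions Spearman's rho of width and mean percentile was 0.46, given as a description since width and score come from the same reads. The score is again that of the best of all peaks in a region. The rank of a region was kept best between the hindlimb libraries, with a rho of 0.82 across regions, and was 0.54 to 0.67 for each pair that held a forelimb library.

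The best ranked region, chr13:56852946-56855897, was 2952 bp wide and was largely covered in every library. Peaks covered 2897 and 2406 bp in the forelimb libraries and 2855 and 2627 bp in the hindlimb libraries, with 1 peak in each. Its best scores were 1045, 593, 2029 and 1722, which put it at the 98.4, 96.8, 98.4 and 98.7 percentile of the 4 lists. No other H3K27me3 region lay within 102480 bp, and no H3K27ac peak of any of the 6 libraries touched it, the nearest being 11260 bp away in forelimb library 1.

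The 9 regions ranked next differed in how near acetylation lay. The region at chr7:120096833-120099644 ranked at the 97.1, 96.4, 96.4 and 95.9 percentile, and forelimb library 1 alone had an H3K27ac peak on it, over 310 bp. The region at chr6:83110509-83113041 ranked at the 95.7, 93.6, 97.7 and 97.1 percentile. It had an H3K27ac peak 2192 to 2524 bp away in 5 of the 6 libraries and 21454 bp away in forelimb library 2, so acetylated and trimethylated chromatin were near neighbours there without overlap. The region at chr2:126377465-126380311 was 704273 bp from the next H3K27me3 region, and its nearest H3K27ac peak in the 6 libraries was 73098 to 119753 bp away. At chr3:157229482-157232024 the next H3K27me3 region was 989970 bp away and the nearest H3K27ac peaks of all 6 libraries were 31213 to 31493 bp away.

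The remaining 5 of the 10 best ranked regions were chr5:72893935-72896295, chr12:81792112-81795097, chr5:135725232-135727303, chr1:75383664-75386060 and chr1:193007369-193010021. Of all 10, H3K27ac overlapped 3. An overlap in at least 1 E10.5 library was found in 30.4% of the 887 regions and 19.2% of all merged regions, so 3 of 10 is near the share of the 887. In 1 only, chr1:193007369-193010021, did H3K27ac overlap in both libraries of a limb. That region had peaks over 445 and 299 bp in the hindlimb libraries, while the nearest forelimb peaks were 37450 and 37749 bp away. Its H3K27me3 covered 2589 and 2368 bp in forelimb and 2285 and 2435 bp in hindlimb, so the limbs overlapped for the repressive mark. At E11.5 its nearest H3K27ac peaks were 28895 bp away in forelimb and 28139 bp away in hindlimb.

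**Figure D3:**
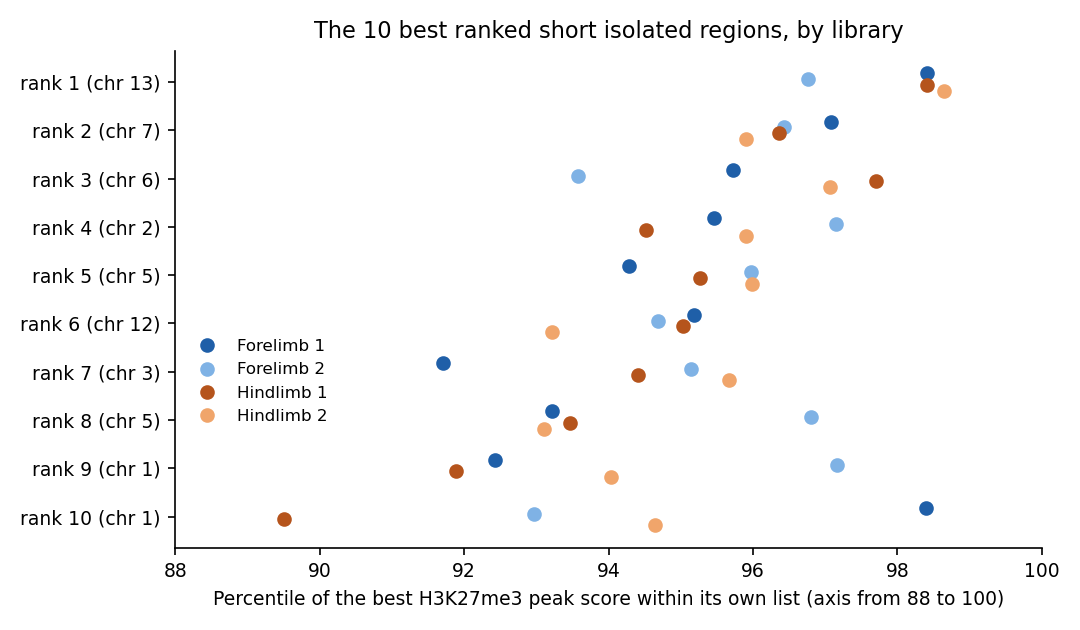
Percentile of the best H3K27me3 peak score within each E10.5 list (horizontal axis, shown from 88 to 100) for the 10 short isolated regions with the best mean percentile, ordered by rank and labelled by chromosome. Each point is 1 library. The top region stands between 96.8 and 98.7 in all 4 libraries, while the tenth spans 89.5 to 98.4.

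At the other end, regions passed the rule with peaks close to the authors' threshold. The worst ranked, chr6:124413849-124415667, had best scores of 62.7, 54.4, 51.6 and 53.5, near the lowest score of 50 in each list. Its peaks covered 757 and 318 bp in forelimb and 1253 and 308 bp in hindlimb. The next worst, chr3:36120684-36121400, had best scores of 54.1, 50.5, 71.3 and 54.7. The narrowest region, chr8:126099364-126099564, was covered over 190 to 201 bp in every library. Its scores were 341 and 200 in forelimb and 106 and 62.3 in hindlimb, higher in both forelimb libraries, the opposite of the order of the medians.

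Spacing ran from the 20 kb limit to several megabases. The distance to the nearest other merged region had a median of 99.2 kb (quartiles 44.3 and 223 kb), and long isolated regions had a median of 80.9 kb. Of the short isolated regions, 244 had their nearest neighbour at 20 to 50 kb, 203 at 50 to 100 kb, 350 at 100 to 500 kb, 64 at 500 to 1000 kb and 26 farther away. The 3 closest to the limit, chr11:96999400-97001539, chr6:38613150-38614818 and chr6:5675536-5676725, had a neighbour at 20075, 20193 and 20229 bp. Just on the other side, regions that met every other condition had a neighbour at 19676, 19610 and 19610 bp.

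The nearest neighbour was mostly a region found in fewer than 4 libraries, for 573 of the regions (64.6%). Of all 8764 merged regions, 5737 were of that kind, so this is near the general share. Another short isolated region was nearest for 133 and a long isolated region for 121. For 36 it was a long clustered region and for 24 a short clustered one. The nearest region of at least 10 kb found in all 4 libraries was a median of 2716 kb away, and 28 regions (3.16%) had one within 100 kb. This distance is not given here for the other classes. Joined at 100 kb, the 887 regions fell into 844 groups, of which 805 held a single region, 35 held 2 and 4 held 3. The groups of 3 were at chr1:34592368-34736964, chr1:75356598-75420755, chr15:74501183-74583467 and chr17:35605992-35706910. The most solitary region, chr5:84844043-84845936, had no H3K27me3 neighbour within 3391849 bp and a mean percentile of 50.1, below the median of its kind.

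By chromosome, the short isolated form made up different shares of the regions found in all 4 libraries, against 29.3% over all chromosomes. Chromosome 1 held the most, 75 of 182 (41.2%), followed by chromosome 7 with 67 and chromosome 4 with 66. The share was 20 of 40 (50%) on the X chromosome, 56 of 257 (21.8%) on chromosome 2 and 55 of 253 (21.7%) on chromosome 11. No test was made, and the Y chromosome, with 6 merged regions, held 0.

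Known developmental genes mostly had the long form of H3K27me3 region. In 57 windows with 50 kb on either side, placed by hand around genes of limb, muscle, nerve, kidney and blood vessel development, the 4 Hox clusters and 2 housekeeping genes, 40 held a region of at least 3 kb found in all 4 libraries. Only 1 window held a short isolated region. At the average density of these regions between the first and last merged region of each chromosome, the 8.36 Mb of windows would hold 2.91, so a count of 1 is a small departure. It is also partly set by the rule, which bars a neighbour within 20 kb. Counted window by window, regions of all 4 libraries came to 74, against 9.93 at their average density. A region inside 2 windows counts in each. The neighbouring Tbx4 and Tbx2 windows both had a longest region of 16.03 kb and seem to share it, so fewer than 74 distinct regions are likely. The long form was present at all 4 Hox clusters, at all 5 neural loci (Pax6, Olig2, Nkx2-2, Sox1 and Neurog1), at all 5 blood and vessel loci, at both kidney loci, at 4 of 5 muscle loci and at 20 of 34 limb loci, and at neither housekeeping locus (Actb, Gapdh). Short regions of all 4 libraries did occur in 8 windows, but with a neighbour within 20 kb, as at HoxA, HoxD, Bmp4 and Lhx2. The loci were picked as well known developmental genes, so they stand for such genes and not for all genes.

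The window with a short isolated region was that of Twist1, a basic helix-loop-helix transcription factor that the limb mesenchyme requires for outgrowth. The region in this window, chr12:34612252-34614729, was 2478 bp wide and ranked 35 among the 887. The window reaches 50 kb to either side and its bounds were not checked. The distance of the region to Twist1 was not measured, so it may lie in a flank and belong to another gene. H3K27me3 covered 1949 and 1948 bp in forelimb and 2337 and 2413 bp in hindlimb, with best scores of 446, 409, 873 and 502. It stood at the 90.3, 92.7, 91.2 and 85.6 percentile of the 4 lists. The next merged H3K27me3 region was 27012 bp away. At E10.5 the nearest H3K27ac peaks were 26013 to 27033 bp away in the 4 libraries, and at E11.5 they were 26599 bp away in forelimb and 7210 bp away in hindlimb, so no library had acetylation on the region.

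H3K27ac played no part in choosing the regions, and it can be tested. At E10.5, H3K27ac peaks overlapped some of the short isolated regions by at least 1 bp in every library. The shares were 19.1% in forelimb library 1, 5.75% in forelimb library 2, 12.9% in hindlimb library 1 and 13.8% in hindlimb library 2. At E11.5 they were 1.80% in forelimb and 2.26% in hindlimb, lower than in each E10.5 library. With 95% Wilson intervals, forelimb library 1 lay between 16.6% and 21.8%; these intervals cover counting error only.

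All merged regions served as the background of these shares. They were overlapped in 12.4%, 5.35%, 8.83% and 9.23% of cases in the E10.5 libraries and in 3.58% and 4.85% at E11.5. The short isolated regions were thus 1.54, 1.07, 1.46 and 1.49 times as often overlapped as merged regions in general at E10.5, and 0.504 and 0.465 times as often at E11.5. Many merged regions are small and were found in few libraries, and the 3027 regions of all 4 libraries are a closer reference. These were overlapped in 17.9%, 7.57%, 13.3% and 13.5% of cases at E10.5 and in 4.00% and 5.22% at E11.5. Against them the short isolated regions showed no common direction at E10.5, being higher in 2 libraries and lower in 2, while at E11.5 they were lower in both limbs. Short clustered regions were also low at E11.5, with 2.89% and 3.41%. For the short isolated regions alone, the E10.5 share averaged 12.9% ± 5.47 (SD, n = 4) and the E11.5 share 2.03% ± 0.319 (SD, n = 2). The difference of 10.8 percentage points had an exact two-sided permutation p of 0.0667, the smallest that 4 libraries against 2 allow. With only the better scoring 50% of each E10.5 list the shares were 6.88%, 2.26%, 6.31% and 5.52% and the difference was 3.21 points (exact permutation p = 0.2). The E11.5 lists carry no score and were kept whole there. Dropping E10.5 peaks alone could not raise the difference, so its fall says nothing on the weaker peaks as such. All merged regions differed by 4.73 points and long isolated regions by 9.41 points in the same direction.

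**Figure D4:**
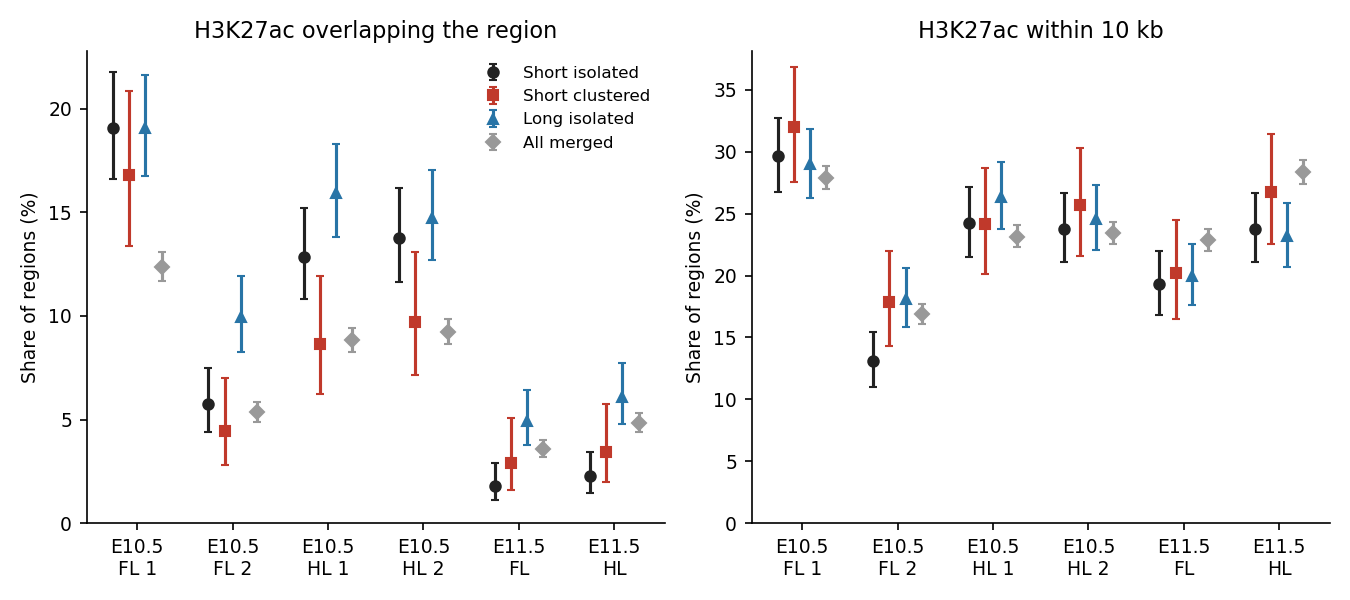
Share of regions (%, vertical axes from 0) with an H3K27ac peak overlapping them (left) or within 10 kb (right) in each of 6 H3K27ac libraries (FL, forelimb; HL, hindlimb). Bars are 95% Wilson intervals, which cover counting error only. On the left, short isolated regions run from 5.75% to 19.1% at E10.5 and are at 1.80% and 2.26% at E11.5; on the right they run from 13.1% to 29.7% at E10.5 and are at 19.3% and 23.8% at E11.5.

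Acetylation at E10.5 was often called in a single library. Of the 887 regions, 270 (30.4%) were overlapped in at least 1 E10.5 library, against 19.2% of all merged regions. In 152 (17.1%) this was exactly 1 library, against 9.6% of all merged regions. Of these, 72 were overlapped in forelimb library 1 alone, 7 in forelimb library 2 alone, 39 in hindlimb library 1 alone and 34 in hindlimb library 2 alone. Exactly 2 libraries overlapped 63 regions (7.10%), against 4.56%, and exactly 3 overlapped 42 (4.74%), against 3.01%. All 4 overlapped 13 (1.47%), below the 2.01% of all merged regions. In sum, at least 2 libraries overlapped 118 regions (13.3%), against 9.58% of all merged regions. These 118 were 43.7% of the 270, while the same share was 49.97% over all merged regions and 49.2% over long isolated ones, so the short isolated regions were near the others in this.

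Replicates overlapped less on these regions than across the lists. Of the 169 regions acetylated in forelimb library 1, 38 (22.5%) were so in forelimb library 2, while 45.7% of all peaks of library 1 met a peak of library 2. The 51 regions of library 2 were found again in library 1 in 74.5% of cases, against 79.6% of all its peaks. Between the hindlimb libraries the shares were 48.2% of 114 and 45.1% of 122 regions, against 64.5% and 56.8% of all peaks. Toward E11.5 the gap was wider: 6.51% and 9.80% of the regions acetylated in the forelimb libraries, and 7.02% and 9.84% of those in the hindlimb libraries, were overlapped in the E11.5 list of the same limb, whereas 74.5% to 82.9% of all E10.5 peaks were. A region counts as shared here when both lists touch it anywhere, and a peak when it meets another peak, so the measures differ in unit.

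The peaks themselves ranked somewhat below the middle of their lists. In the 4 E10.5 libraries, the best H3K27ac peak on a region had a median score percentile of 42.6, 41.2, 48.7 and 44.4. Median widths were 472, 397, 364.5 and 433 bp, below the 579, 438, 452 and 536 bp of all peaks of these lists. Only 2, 1, 3 and 1 of these peaks reached the top 10% of their list. The part of low peak rank in the overlap was not tested. H3K27ac peaks on the other classes of region were not ranked, so low rank is not shown to be particular to the short isolated ones. In the 4 libraries, 84.3% to 94.7% of these peaks had their centre inside the region.

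H3K27ac was concentrated at the centre of the regions at E10.5 and was thinner there than around them at E11.5. Within 1 kb of the centre, H3K27ac peaks covered 4.91% of the bases in forelimb library 1, 1.19% in forelimb library 2, 3.20% in hindlimb library 1 and 3.50% in hindlimb library 2. From 10 to 20 kb away they covered 0.851%, 0.474%, 0.585% and 0.687%, so the centre was 5.77, 2.52, 5.48 and 5.10 times as dense. At E11.5 the centre had 0.735% in forelimb and 0.881% in hindlimb, against 1.62% and 2.34% at 10 to 20 kb, or 0.453 and 0.376 times as much. Long isolated regions had ratios of 3.66, 2.52, 3.74 and 3.23 at E10.5 and of 0.845 and 0.694 at E11.5. Short clustered regions had 3.32, 1.73, 2.75 and 2.18 at E10.5 and 0.363 and 0.324 at E11.5. The low centre at E11.5 and the rise at E10.5 were thus found in all 3 classes. At E11.5 the ratios were lower for short regions of either spacing than for long isolated ones. The differences between the classes were not tested.

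**Figure D5:**
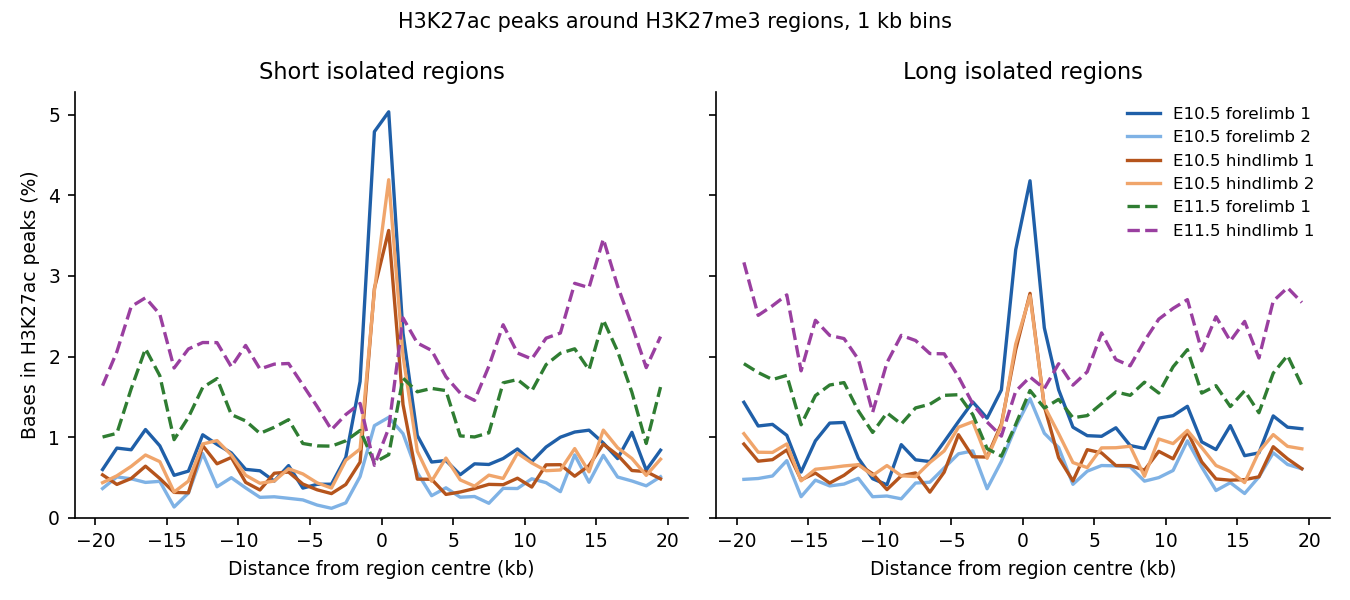
Bases inside H3K27ac peaks (%, vertical axis from 0) in 1 kb bins up to 20 kb on either side of the region centre, for short isolated (left) and long isolated (right) regions. Solid lines are E10.5 libraries and dashed lines E11.5 libraries. The E10.5 lines rise at the centre of both classes. At E11.5 the centre has 0.453 and 0.376 times the density at 10 to 20 kb on the left, and 0.845 and 0.694 times on the right.

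Very few regions had peaks of both marks in all E10.5 libraries. The 13 overlapped in all 4 E10.5 libraries ranked from 55 to 796 among the 887. The best ranked, chr13:34742761-34745380, had H3K27ac over 717 and 349 bp in forelimb and 364 and 612 bp in hindlimb, beside H3K27me3 over 2377 and 1726 bp in forelimb and 2161 and 2408 bp in hindlimb. Its nearest E11.5 peaks were 105381 bp away in forelimb and 72801 bp away in hindlimb. The next, chr5:131781600-131783741, had H3K27ac over 259, 433, 545 and 745 bp and its nearest E11.5 peaks 228906 and 63428 bp away. At chr7:125632915-125635235 H3K27ac covered 717, 346, 765 and 826 bp at E10.5, 0 bp in the forelimb at E11.5 and 109 bp in the hindlimb at E11.5.

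H3K27ac was called again in both E11.5 libraries at 2 of the 13. Over all merged regions this held for 81 of 176, and over long isolated regions for 17 of 38. H3K27me3 was not measured at that stage. At chr3:38784976-38787503 H3K27ac covered 453 and 697 bp in the E10.5 forelimb libraries, 891 and 641 bp in hindlimb, and 535 and 839 bp at E11.5. At chr19:43459592-43461525, named after its values were seen, it covered 775 and 538 bp in forelimb, 331 and 394 bp in hindlimb, and 1934 bp, the whole region, in both E11.5 libraries. In all, 12 regions (1.35%) were overlapped in both E11.5 libraries, against 2.94% of all merged regions. Each of these 12 was also overlapped in at least 1 E10.5 library. Over all merged regions, 47 of the 258 overlapped in both E11.5 libraries had no E10.5 overlap. Of the 118 acetylated in 2 or more E10.5 libraries, 12 (10.2%) were overlapped in either E11.5 library. Over all merged regions this was 254 of 840 (30.2%), over long isolated regions 54 of 162 (33.3%) and over short clustered regions 11 of 41 (26.8%). As a share of all regions it was 1.35% of the short isolated and 2.9% of all merged regions. These shares were not tested.

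Within 10 kb, differences in acetylation between the short isolated regions and the long isolated or short clustered ones did not pass the test. The shares were 29.7% and 13.1% in the E10.5 forelimb libraries, 24.2% and 23.8% in hindlimb, and 19.3% and 23.8% in the E11.5 forelimb and hindlimb. All merged regions had 27.9%, 16.9%, 23.2%, 23.5%, 22.9% and 28.4% in the same order. The short isolated regions were thus above this background in 3 of 4 E10.5 libraries and below it in both E11.5 libraries. Long clustered regions had 29.5%, 19%, 24.8%, 26.95%, 21.7% and 28.4%, higher than the short isolated ones in 5 of 6 libraries, a difference that was not tested. The mean over 6 libraries was 22.3%, against 23.5% for long isolated regions. The difference of -1.23 percentage points ± 2.12 (SD over 6 libraries) had an exact two-sided sign-flip permutation p of 0.188 (Benjamini-Hochberg adjusted over 2 comparisons, 0.188) and was lower in 4 of 6 libraries. Short clustered regions had 24.5%, a difference of -2.15 points ± 1.68 (exact permutation p = 0.0625, adjusted 0.125), lower in 5 of 6 libraries. Neither difference passed the threshold of 0.05, and the smallest p that 6 libraries allow is 0.031.

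The answer depended on the distance used. For direct overlap the short isolated regions were below long isolated ones in 6 of 6 libraries, by -2.54 points ± 1.66 (exact permutation p = 0.031), but a long region offers more bases to be overlapped. Measured from the region centre, the window is equal for all regions, though more of it lies inside a long region. The difference within 10 kb of the centre was then 1.04 points (exact permutation p = 0.281). Against short clustered regions it was -2.11 points within 10 kb of the centre (p = 0.031, exact permutation test), and -15.3 points within 50 kb of the edge (p = 0.031, exact permutation test), where 50.6% of the short isolated and 65.9% of the short clustered regions had acetylation. At these 2 settings short regions with H3K27me3 neighbours thus had H3K27ac more often than solitary ones, in 6 of 6 libraries. For overlap and within 3 kb of the edge the difference went the other way, at 1.59 and 1.19 points (exact permutation p = 0.156 and 0.188). The p-values of these settings were not adjusted, and the centre-based setting was added after the data were seen.

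The limbs did not separate. Within 10 kb, 21.4% ± 11.7 of the regions had H3K27ac in forelimb and 24.0% ± 0.319 did in hindlimb (SD, n = 2 libraries each), a difference of -2.65 points (exact permutation p = 1, smallest possible 0.33). The forelimb libraries lay on either side of both hindlimb libraries. Without forelimb library 1 the difference was -10.9 points and without forelimb library 2 it was 5.64, so its sign rests on which forelimb library is kept. Both forelimb libraries had acetylation within 10 kb of 103 regions (11.6%), against 14.2% of all merged regions, and both hindlimb libraries near 134 (15.1%), against 15.7%. All 4 did so near 73 (8.23%), against 10.3%, and both E11.5 libraries near 159 (17.9%), against 20.9%.

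Limb-specific acetylation was near few of the regions. Both forelimb libraries and neither hindlimb library had H3K27ac within 10 kb of 10 regions (1.13%), against 1.46% of all merged regions. The reverse held for 17 (1.92%), against 1.39%. These shares are close to the background. The best ranked forelimb-only case, chr16:4417677-4420504, had H3K27ac over 542 and 458 bp in the forelimb libraries and none within 54381 bp in hindlimb, while H3K27me3 covered 2062 and 1533 bp in forelimb and 2685 and 2754 bp in hindlimb. There the forelimb, the limb with acetylation, had fewer bases covered by H3K27me3, and it kept that mark. Both hindlimb libraries covered more in 64.7% of the short isolated regions, so this order is the common one. At chr6:85977737-85979770, the next, forelimb H3K27ac covered 359 and 572 bp and H3K27me3 covered 1330 and 1062 bp in forelimb and 1404 and 910 bp in hindlimb, so the limbs overlapped.

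Among the hindlimb-only cases, chr2:13714062-13716030 followed the region on chromosome 1 already described. Its H3K27ac covered 762 and 286 bp in hindlimb, with no forelimb peak within 217317 bp. Its H3K27me3 covered 1352 and 1548 bp in forelimb and 1948 and 1882 bp in hindlimb. The limb that was also acetylated thus had more, which is again the order of 64.7% of the short isolated regions. At chr1:38892239-38894210 hindlimb H3K27ac covered 574 and 618 bp, and H3K27me3 covered 1563 and 1766 bp in forelimb and 1865 and 1730 bp in hindlimb. None of these 5 limb-specific regions had an E11.5 peak on it in either limb. Such a peak was rare over all 887 regions too, at 1.80% in forelimb and 2.26% in hindlimb.

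Short isolated regions found in fewer libraries were smaller and scored lower. There were 2566 found in 1 library, 446 in 2 and 421 in 3, beside the 887 in all 4. Their median widths were 317, 908.5, 1489 and 2090 bp and their median score percentiles 17.7, 36.4, 47.6 and 66.7, in that order. Forelimb library 1 alone held 974 of the 2566, and hindlimb library 1 held 767. Overlap with H3K27ac in forelimb library 1 was 5.92%, 21.8%, 22.1% and 19.1% as the number of H3K27me3 libraries went from 1 to 4, and in forelimb library 2 it was 2.22%, 10.3%, 10.5% and 5.75%. In hindlimb library 1 it was 3.98%, 15.7%, 14.96% and 12.9%, and in hindlimb library 2 it was 4.21%, 16.1%, 15.7% and 13.8%. In each E10.5 library the share was lower for regions of all 4 libraries than for those of 2 or 3. At E11.5 it was 2.61%, 4.26%, 5.46% and 1.80% in forelimb and 4.29%, 6.50%, 5.94% and 2.26% in hindlimb. The regions of all 4 libraries were thus the least often overlapped of the 4 sets at E11.5 although they were the widest; these differences were not tested.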

How the data were processed

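The score the authors deposited with each E10.5 peak is 10 times −log10 p. Per the file headers, peaks were called by MACS at a p-value threshold of 1e-05. Per the submitters' processing notes, Bowtie 0.12.3, MACS 1.37 and mm9 were used. There is 1 list per library, with no pooled replicates. The E11.5 lists the authors deposited give positions only, with no score. The input behind each list is not stated in the labels, and the 10 input and 4 mRNA samples were not used here.

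Lists were stitched, merged and compared with Python 3.11.15, numpy 2.4.6 and scipy 1.17.1, and the selection and share test were tested on simulated data. Classes were compared over H3K27ac libraries by exact sign-flip permutation, and limbs and stages by exact permutation of libraries, all two-sided. Regions named are the extremes of score rank, width and spacing on either side of the limits, the best ranked with H3K27ac in all 4 libraries or near 1 limb only, and members of gene windows. The members and lists were chosen with earlier results of these data known. Windows were placed by hand from general knowledge of mm9; all 57 lay on the chromosome that a GRCm38.p6 gene table gives, which does not check their bounds. Same-numbered limb libraries did not deviate together (r = -0.05, 2 pairs). Alternatives were other stitch, width, spacing and distance settings, score limits, equal list lengths and leaving out libraries; centre-based distances, crossed pairs and the stage comparison were added after seeing the data.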

Additional observations from a re-analysis of the deposited data

Results flagged for a closer look

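Against all merged regions, the short isolated regions lay on opposite sides at E10.5 and E11.5. Their overlap with H3K27ac exceeded that of all merged regions by 0.398 to 6.67 percentage points in the 4 E10.5 libraries (mean 3.90) and was below it in both E11.5 libraries, by -1.78 and -2.60 points (mean -2.19), a difference of 6.09 points. The E10.5 part depends on the reference: regions of all 4 libraries had 17.9%, 7.57%, 13.3% and 13.5%, beside 19.1%, 5.75%, 12.9% and 13.8% for the short isolated regions. The E11.5 shortfall was shared by short clustered regions (2.89% and 3.41%, against 3.58% and 4.85% of all merged regions). The share of bases in H3K27ac peaks within 1 kb of the centre exceeded that at 10 to 20 kb by 0.720 to 4.06 points at E10.5 and was below it by -0.886 and -1.46 points at E11.5, a difference of 3.73 points. Each difference had an exact two-sided permutation p of 0.0667, the smallest that the 15 arrangements of 4 and 2 libraries allow. Stage, antibody lot and preparation of the lists cannot be told apart.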

How the results depend on the processing

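The number of short isolated regions was 400 with a width limit of 2 kb and 1491 with 5 kb, and 1049 to 1222 without 1 H3K27me3 library; with the better scoring 50% of each H3K27me3 list it was 841, and 455 of the 887 overlapped these. Their median score percentile was 66.7 as reported and 65.2 to 65.9 without 1 library. It was 59.6 with the median score of a list's peaks in a region in place of the best. Against long isolated regions, the difference in H3K27ac share was -2.54 points for overlap (exact p = 0.031), turned to 0.412 with stitching at 1 kb and to 1.04 from the centre, and was -1.71 to 0.789 without 1 library, positive without forelimb H3K27me3 library 1. Against short clustered regions it turned to 1.59 for overlap and 1.19 within 3 kb. It passed the threshold at -15.3 within 50 kb, -2.48 with the better scoring 50% of H3K27ac peaks, -4.45 with stitching at 1 kb, -5.96 with no neighbour within 50 kb and -2.11 from the centre, and was -2.998 to -0.680 without 1 library, past the threshold without forelimb H3K27me3 library 2 (-2.998) or hindlimb H3K27me3 library 1 (-2.66). The forelimb minus hindlimb difference was -10.9 to 5.64 without 1 library. With the replicate block, or with the pairing crossed, it stayed at -2.65 points (exact permutation p = 1). The stage difference in overlap was 8.76 to 13.2 points without 1 library. The cause of these shifts was not tested. Unknown depth limits every statement on a missing peak.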
